A study of Mus musculus with 6 samples.

Results

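Transcripts of p53 and of 9 genes that p53 is known to activate were followed in immortalized cardiosphere-derived cells of the mouse, called iCDCs in the labels and iECDCs in the study, without and with induction by 5-azacytidine. The 10 genes, Trp53, Mdm2, Perp, Pmaip1, Trp53inp1, Ccng1, Bbc3, Bax, Sesn2 and Gdf15, were taken by symbol from a table of 54532 genes, and all 10 were among the 14246 genes with enough reads to be tested. The cells were grown out of ventricle epicardium of C57BL/6 mice and immortalized with a lentivirus that expresses human telomerase (hTERT) from a CMV promoter, followed by puromycin selection. Whether they descend from 1 clone is not stated. The 3 control libraries came from iCDCs at passage 30, and the 3 induced libraries came from iCDCs of the same passage given 10 µM 5-azacytidine, a cytidine analog that blocks DNA methylation, for 3 days. After the drug, the labels give 4 weeks in IMDM with 2% serum, whereas the methods of the study describe another basal medium and a shorter time for cardiac induction. The labels carry this treatment text on all 6 samples, and only the titles and descriptions set the control samples apart as iCDCs without induction. How long and in which medium the control cells were kept is not given, so drug, serum and time in culture cannot be told apart.

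Control and induced libraries held 19041133 to 19823369 counted reads each. Of 8 markers of cardiosphere cells, all 8 were measured in both groups, with summed levels of 6509 to 6621 CPM (reads relative to the library size after TMM scaling) in control and 3289 to 3422 CPM in induced libraries. Most of this sum was Cxcl12, at 5521 CPM in control and 1506 CPM in induced libraries. Of the 8 markers, 4 were higher, among them Upk3b at 254 and 942 CPM, and 4 were lower. Over all tested genes, 32.6% were higher and 32.2% were lower. Of 8 leukocyte markers, 6 had no read in any library, and the summed level of the list was 3.04 to 4.26 CPM in control and 13.6 to 15.9 CPM in induced libraries, nearly all of it Lyz2. The 6 endothelial markers together stayed at or below 0.943 CPM. The 8 cardiomyocyte markers summed to 13.1 to 16.1 CPM in control and 59.1 to 62.7 CPM in induced libraries. Nearly all of this sum was Tnnt2 (log2 fold change 2.15), while Myh6, Myh7, Nppa and Myl2 had means at or below 0.0706 CPM in both groups. Tnni3 was at 1.52 CPM in control and 2.02 CPM in induced libraries and did not pass the test. Ryr2 had 1 read over the control and 29 over the induced libraries, and Actn2 had 8 reads, all in induced replicate 2. Both were too low to be tested. The part of any of these cell types in the levels of p53 and its targets was not tested. In these bulk libraries, a change in the level per cell and a change in the share of cells that express a gene cannot be told apart.

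p53, encoded by Trp53, is a transcription factor that is stabilized by DNA damage and other stress. Its own target Mdm2 is a ubiquitin ligase that returns p53 to a low level, and its remaining targets stop the cell cycle, repair damage, limit growth signalling or start apoptosis at the mitochondrion. The amount of p53 is set largely through protein stability, so a transcript level is not a measure of the protein, which was not measured in these files. Several of these targets are also switched on by other stress pathways, among them the response to starvation and to unfolded protein that runs through Atf4.

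Trp53 itself was lower in induced iCDCs, while 7 of its 9 targets were higher. The largest differences were those of Perp, a membrane protein of desmosomes, at 23.9-fold, and of Pmaip1, which encodes the BH3-only protein Noxa, at 4.47-fold. Trp53inp1 and Sesn2 were more than 2-fold higher, and Ccng1, Gdf15 and Mdm2 differed by less. The pro-apoptotic genes Bbc3 and Bax were lower. All 10 genes passed the test, in a comparison in which 64.8% of all tested genes passed it, 32.6% as higher and 32.2% as lower. In all 10 the libraries of the groups did not overlap, which held for 68.6% of all tested genes, 34.1% as higher and 34.5% as lower. At least 2-fold higher were 4 of the 10, against 9.29% of all tested genes, and none of the 10 was 2-fold lower, against 7.83%. The median log2 fold change was 0.59 over the 10 genes and -0.01 over all tested genes. The 10 genes were chosen with earlier results of these data known, so these contrasts are a description. Perp also passed the filter on low counts through its induced libraries. The plot of levels by library shows the values of each gene.

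**Figure D1:**
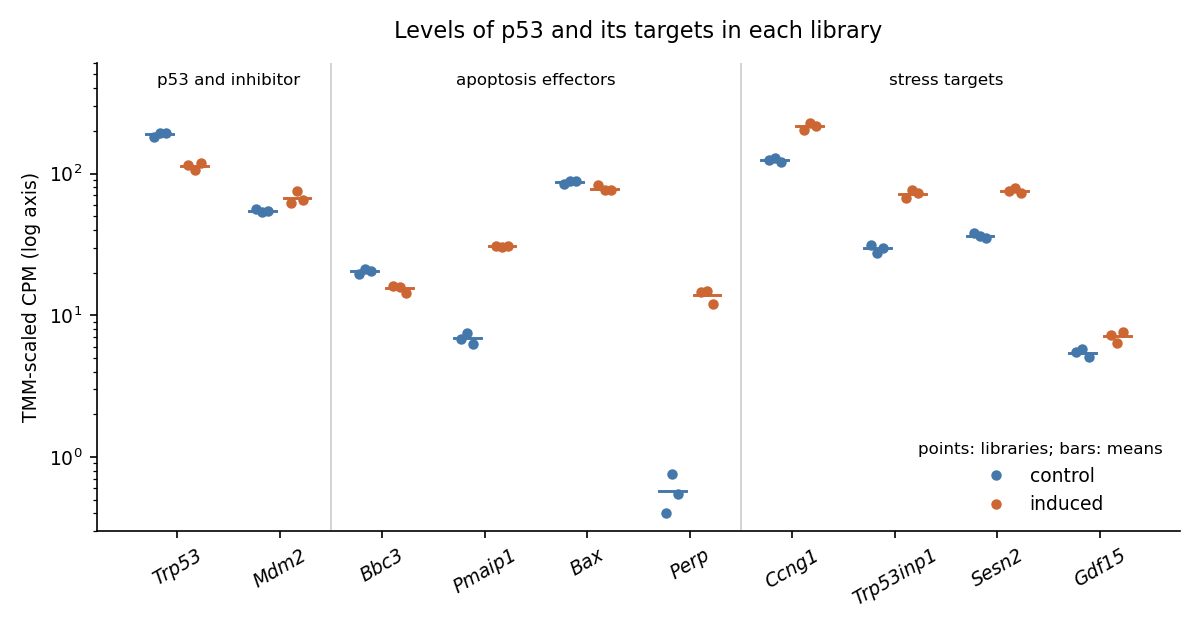
Levels of the 10 genes in TMM-scaled CPM on a log axis, with 1 point per library (3 control, 3 induced) and a bar at each group mean, ordered by role. Control and induced libraries are separate for every gene. Perp lies at 0.405 to 0.764 CPM in control and 12.1 to 14.8 CPM in induced libraries, and Trp53, Bbc3 and Bax are the genes whose induced libraries lie below the control libraries.

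Sequence before the start of transcription was read from RefSeq (GRCm38.p6), which gave windows for 7 of the 10 genes. Perp, Trp53inp1 and Pmaip1 had none. The windows of 300 bases (250 before the start and 50 after it) were searched for the p53 half-site consensus, which reads 3 purines, C, A or T, A or T, G and 3 pyrimidines and is its own reverse complement. It was found once in each of the windows of Trp53, Mdm2, Ccng1 and Bax, and not in those of Bbc3, Sesn2 and Gdf15. A half-site was present in 8.36% of 32851 windows of all genes and in 6.94% of 13220 windows of tested genes. A full element of 20 bases, made of 2 half-sites side by side and allowing 2 mismatches, was found in Ccng1 alone, with 1 mismatch. Such elements were present in 0.798% of all windows and in 0.696% of those of tested genes. The 4 sequences are shown because they hold the matching letters in genes that moved in both directions. They run 5′ to 3′ on the strand of the gene and end at the last base before its start, except that exon bases are left out, so that the sequence of Ccng1 stops short of the start from which its positions are counted. The capitals mark the half-site or, in Ccng1, the element.
Trp53, chr11:69580256-69580358, plus strand: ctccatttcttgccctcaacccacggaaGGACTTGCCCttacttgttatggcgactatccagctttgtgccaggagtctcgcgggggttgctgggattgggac
Mdm2, chr10:117710759-117711008, minus strand: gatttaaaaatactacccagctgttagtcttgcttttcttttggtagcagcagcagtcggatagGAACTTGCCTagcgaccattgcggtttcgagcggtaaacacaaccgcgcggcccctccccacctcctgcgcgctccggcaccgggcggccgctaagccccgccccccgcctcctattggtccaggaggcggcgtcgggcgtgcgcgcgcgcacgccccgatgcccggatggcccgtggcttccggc
Ccng1, chr11:40755312-40755536, minus strand: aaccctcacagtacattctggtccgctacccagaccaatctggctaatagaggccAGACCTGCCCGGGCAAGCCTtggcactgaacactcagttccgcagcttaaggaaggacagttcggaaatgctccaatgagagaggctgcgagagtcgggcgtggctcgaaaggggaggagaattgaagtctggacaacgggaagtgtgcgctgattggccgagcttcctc
Bax, chr7:45466899-45467148, minus strand: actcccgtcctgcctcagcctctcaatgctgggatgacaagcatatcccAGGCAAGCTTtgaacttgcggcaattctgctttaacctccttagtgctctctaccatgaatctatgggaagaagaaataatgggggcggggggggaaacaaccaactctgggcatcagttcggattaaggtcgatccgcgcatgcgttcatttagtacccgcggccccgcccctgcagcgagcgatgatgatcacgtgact

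The half-sites began at position -75 from the start of the RefSeq transcript in Trp53, -186 in Mdm2, -185 in Ccng1 and -201 in Bax. Of these 4 genes, Mdm2 and Ccng1 were higher and Trp53 and Bax were lower in induced iCDCs. CpG dinucleotides, the bases at which DNA is methylated, numbered 10 in the window of Trp53, 35 in Mdm2, 14 in Ccng1, 19 in Bax and 23 in Sesn2. The 3 windows of Bbc3 held 30 to 39 and the 2 windows of Gdf15 held 1 and 7, with a median of 20 in windows of tested genes. Methylation was not measured in these libraries, and a match of letters is not evidence that p53 was bound. Sequence outside the windows was not searched, so a window without a match does not show that its gene lacks a p53 site.

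Trp53 lies at chr11:69580359-69591873 (mm10, plus strand). Its level was 182, 192 and 192 CPM in the control libraries and 115, 106 and 119 CPM in the induced libraries. All induced libraries were below all control libraries, with means of 189 ± 5.68 CPM (SD, n = 3) and 113 ± 6.60 CPM (SD, n = 3). The log2 fold change was -0.73 (SE 0.05, 95% interval -0.84 to -0.63), which is a level 1.66-fold higher in control iCDCs (adjusted p = 8.15e-10, edgeR). This placed Trp53 at percentile 12.2 of the log2 fold changes of all tested genes. The processed pseudogene Trp53-ps, which shares sequence with Trp53, held 193 reads in control and 93 in induced libraries, or 1.73% and 1.44% of the reads of Trp53. Wrap53, which lies head to head with Trp53 on the opposite strand and was singled out after its values were seen, had 12.5 ± 2.02 CPM (SD, n = 3) in control and 8.61 ± 0.594 CPM (SD, n = 3) in induced libraries, a log2 fold change of -0.54 (adjusted p = 0.000902, edgeR).

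Mdm2 (chr10:117688875-117710758, minus strand) encodes the ubiquitin ligase that binds p53 and marks it for degradation. It measured 55.8, 53.8 and 54.9 CPM in control libraries and 62.2, 74.8 and 64.7 CPM in induced libraries. Its lowest induced library was above its highest control library, and induced replicate 2 stood above the other induced libraries. The means were 54.8 ± 0.989 and 67.2 ± 6.66 CPM (SD, n = 3 each), and the log2 fold change was 0.29 (SE 0.06, adjusted p = 0.000584, edgeR). Set against Trp53 on the scale of the deposited FPKM (reads per gene length and library depth), the ratio of Mdm2 to Trp53 was 0.223 to 0.244 in control and 0.429 to 0.562 in induced libraries. The ratio was therefore higher in every induced library than in any control library, with means of 0.232 ± 0.011 and 0.475 ± 0.075 (SD, n = 3 each).

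The effectors of apoptosis at the mitochondrion did not move in 1 direction. Pmaip1 (chr18:66458604-66465550, plus strand) encodes Noxa, a BH3-only protein that binds and neutralizes the survival protein Mcl1. It measured 6.79, 7.49 and 6.31 CPM in control libraries and 30.7, 30.4 and 31.0 CPM in induced libraries. The induced libraries lay within 1 CPM of each other and far above the control libraries, and the log2 fold change was 2.16 (SE 0.09, 95% interval 1.98 to 2.34, adjusted p = 2.6e-13, edgeR).

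Bbc3 (chr7:16308393-16318205, plus strand) encodes Puma, a BH3-only protein that binds all the main survival proteins of the BCL2 family. Its level was 19.7, 21.3 and 20.5 CPM in control libraries and 16.2, 15.9 and 14.5 CPM in induced libraries. Every induced library was below every control library, and the log2 fold change was -0.40 (SE 0.08, adjusted p = 0.000419, edgeR). On the FPKM scale the ratio of Pmaip1 to Bbc3 was 0.269 ± 0.019 (SD, n = 3) in control and 1.59 ± 0.11 (SD, n = 3) in induced libraries, so that Bbc3 was the more abundant transcript in each control library and Pmaip1 the more abundant in each induced library.

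Bax (chr7:45461697-45466898, minus strand) encodes the protein that forms pores in the outer mitochondrial membrane. Its level was 84.1, 88.9 and 88.7 CPM in control libraries and 82.4, 76.2 and 75.9 CPM in induced libraries. The highest induced library, replicate 1, was close to the lowest control library, replicate 1, without reaching it. The log2 fold change was -0.16 (SE 0.05, 95% interval -0.26 to -0.05, adjusted p = 0.0172, edgeR). This call was lost when control replicate 2, control replicate 3 or induced replicate 3 was left out, with adjusted p between 0.00431 and 0.0849 over all alternatives. Its exons share 12.2% of their length with Gm45808, which had no read.

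Perp (chr10:18845020-18857073, plus strand) encodes a tetraspan membrane protein that is needed for desmosomes in epithelia and is also a target of p53 and of its relative p63. It had 8, 15 and 11 reads in control libraries and 276, 281 and 230 reads in induced libraries, or 0.405, 0.764 and 0.551 CPM against 14.7, 14.8 and 12.1 CPM. The control libraries differed from each other by a coefficient of variation of 31.5% at these low counts, yet the groups were far apart. The log2 fold change was 4.58 (SE 0.20, 95% interval 4.19 to 4.97, adjusted p = 5.06e-13, edgeR), at percentile 98.9 of all tested genes. Perp passed the filter on low counts through its induced libraries, and its size depends on how low values are treated: with limma on log2(FPKM + 1) the log2 difference was 2.64. The level per gene length stood at percentile 8.13 of the tested genes in control and 57.9 in induced libraries.

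Of 16 genes of desmosomes and epithelial junctions, 8 had enough reads to be tested. Higher were 7 of these 8 (7 of all 16), against 32.6% of all tested genes. Some of these passed the filter only through the induced libraries, in which they are high, so the count is a description. Dsg2 did not pass the test. The desmosomal cadherin gene Dsc2, singled out after its values were seen, went the other way, with 3, 3 and 7 reads in control libraries and none in induced libraries. It was left out by the filter, and without a filter 7 of the 16 genes were called higher and 1, Dsc2, lower. The plakophilin Pkp2 was at 3.86 ± 0.326 CPM in control and 19.5 ± 0.464 CPM in induced libraries, plakoglobin (Jup) at 65.3 ± 2.60 and 136.9 ± 2.86 CPM, and the keratin Krt14 at 0.489 ± 0.0287 and 12.2 ± 2.98 CPM (SD, n = 3 each). E-cadherin (Cdh1) was at 0.706 ± 0.425 and 2.72 ± 0.931 CPM, and desmoplakin (Dsp) had 18 reads over the control libraries and 66 over the induced libraries. With limma on log2(FPKM + 1) the log2 differences were 1.44 for Pkp2, 2.61 for Krt14, 0.46 for Cdh1 and 0.12 for Dsp, against 2.33, 4.62, 1.93 and 1.91 in edgeR. The summed level of all 16 genes was 145.5 to 148.2 CPM in control and 264.6 to 271.8 CPM in induced libraries. Of 7 markers of mesothelial cells, the epithelium that covers the heart, 6 were higher and 1, Krt19, was lower. Over all tested genes the shares were 32.6% higher and 32.2% lower. Krt8 and Krt18, with 0 to 3 reads in each control library, passed the filter through the induced libraries, in which they are high. The summed level of the 7 markers was 602 to 626 CPM in control and 2138 to 2222 CPM in induced libraries. Most of this sum was Upk3b, at 254 and 942 CPM, and Lrrn4, at 283 and 906 CPM. The part of mesothelial cells in the level of Perp was not tested. Trp63, which encodes p63, had 18 reads over the control libraries and 4 over the induced libraries and was too low to be tested.

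Among the targets that act in growth arrest and stress, all 4 were higher. Ccng1 (chr11:40748552-40755311, minus strand) encodes cyclin G1, which takes part in the feedback on Mdm2 and p53. It measured 124, 128 and 121 CPM in control libraries and 204, 226 and 217 CPM in induced libraries, with no overlap and a log2 fold change of 0.79 (SE 0.05, adjusted p = 1.83e-10, edgeR). Trp53inp1 (chr4:11156431-11174379, plus strand) encodes a stress protein with roles in apoptosis and autophagy. It measured 31.3, 27.7 and 30.1 CPM in control libraries and 67.3, 76.1 and 72.7 CPM in induced libraries. The lowest induced library was more than 2-fold above the highest control library, and the log2 fold change was 1.28 (SE 0.06, adjusted p = 3.53e-12, edgeR).

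Sesn2 (chr4:132492032-132510501, minus strand) encodes sestrin 2, a leucine-binding inhibitor of the growth kinase mTORC1 that is induced by p53 and by Atf4. It measured 37.8, 36.5 and 35.1 CPM in control libraries and 75.3, 79.3 and 72.4 CPM in induced libraries. The groups were well apart, and the log2 fold change was 1.05 (SE 0.06, adjusted p = 1.2e-11, edgeR). Gdf15 (chr8:70629393-70632456, minus strand) encodes a secreted stress cytokine of the TGF-beta superfamily that is likewise induced by both pathways. It measured 5.47, 5.76 and 5.11 CPM in control libraries and 7.28, 6.42 and 7.60 CPM in induced libraries. The lowest induced library was only slightly above the highest control library, and the log2 fold change was 0.38 (SE 0.14, 95% interval 0.12 to 0.65, adjusted p = 0.0196, edgeR). The call on Gdf15 was lost without control replicate 3 and without induced replicate 3, with adjusted p from 0.0063 to 0.069 over all alternatives. The libraries of a group did not differ from each other in 1 direction over these genes. Control replicate 2 was the highest control library for 6 of the 10 genes and the lowest for 2. Induced replicate 2 was the highest induced library for 5 of the 10 genes and the lowest for 3, among them Trp53.

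**Figure D2:**
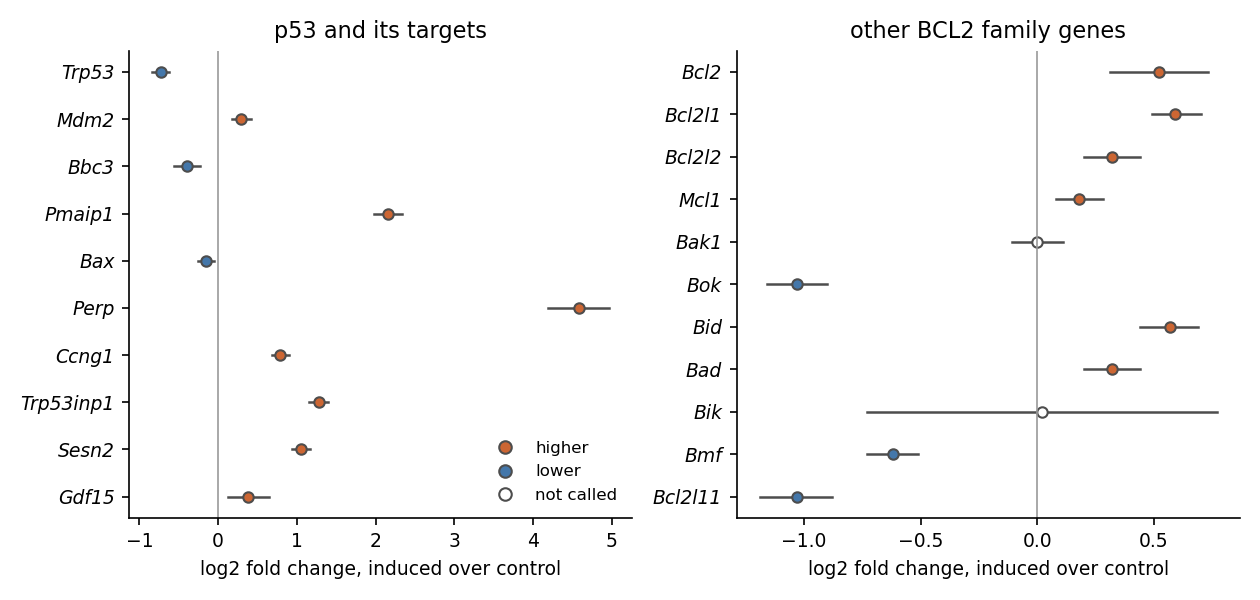
Log2 fold change of induced over control iCDCs (3 libraries each) with its 95% interval, for p53 and its 9 targets on the left and for the 11 other genes of the BCL2 family that were tested on the right. The horizontal scales differ. Perp at 4.58 and Pmaip1 at 2.16 stand farthest to the right, and among the BCL2 family Bcl2l11 and Bok, both at -1.03, stand farthest to the left.

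Levels of different genes were compared on the FPKM scale, which corrects for gene length. In control libraries the order from high to low was Bax, Trp53, Ccng1, Mdm2, Sesn2, Bbc3, Trp53inp1, Gdf15, Pmaip1 and Perp. Bax was at 54.8 ± 1.71 FPKM, Trp53 at 46.2 ± 1.39 FPKM and Ccng1 at 35.1 ± 1.01 FPKM, against 0.291 ± 0.0911 FPKM for Perp (SD, n = 3 each). Neighbours in this order whose libraries overlapped were Mdm2 with Sesn2 and Gdf15 with Pmaip1. In induced libraries the order was Ccng1, Bax, Trp53, Sesn2, Mdm2, Pmaip1, Trp53inp1, Bbc3, Perp and Gdf15. Ccng1 was at 61.3 ± 3.10 FPKM, Bax at 49.5 ± 2.35 FPKM and Trp53 at 28.0 ± 1.67 FPKM, and the neighbours that overlapped were Pmaip1 with Trp53inp1 and Bbc3 with Perp (SD, n = 3 each). Of the summed FPKM of the 10 genes, Bax made up 31.0% in control and 23.1% in induced libraries. The share of Ccng1 was 19.8% in control and 28.6% in induced libraries, and that of Pmaip1 was 1.45% and 5.40%.

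**Figure D3:**
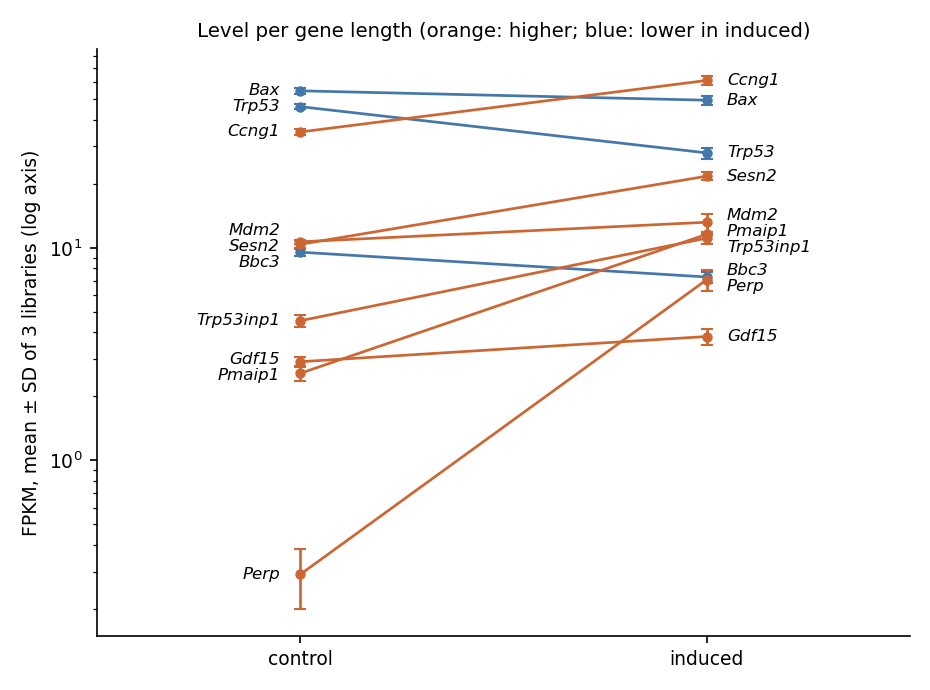
Mean FPKM of the 10 genes in control and induced iCDCs on a log axis, with SD over 3 libraries. Bax at 54.8 FPKM leads in control libraries and Ccng1 at 61.3 FPKM in induced libraries, and Perp moves from 0.291 to 7.08 FPKM.

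Of 32 other known targets of p53, 18 were higher, 7 were lower and 7 did not pass the test. The shares over all tested genes are those given above for the 10 genes, and the median log2 fold change of the 32 was 0.30. Cdkn1a, which encodes the cell cycle inhibitor p21, was at 139.5 ± 4.91 CPM in control and 256 ± 13.1 CPM in induced libraries (SD, n = 3 each), a log2 fold change of 0.88 (SE 0.05, adjusted p = 4.05e-11, edgeR). Its exons share 7.68% of their length with a gene on the opposite strand. The antiproliferative gene Btg2 differed by 0.82 and Ei24 by 0.66 on the log2 scale. Sesn1, the sestrin that is the closest relative of Sesn2 among these targets, differed by 0.59, and the death receptor gene Fas by 0.46. The 7 that were lower, named here because of their number and after their values were seen, were Gls2 (-1.05), Pidd1 (-0.90), Dram1 (-0.77), Ppm1d (-0.69), Psrc1 (-0.46), Apaf1 (-0.42) and Sulf2 (-0.26). They include Apaf1, the adaptor that activates caspases downstream of mitochondria, and Ppm1d, a phosphatase that switches p53 signalling off. None of the 32 was 2-fold higher, so the differences of Perp, Pmaip1, Trp53inp1 and Sesn2 were above the whole range of the other targets, which reached from -1.05 to 0.88. The 10 genes and the 32 were chosen with earlier results of these data known, so this contrast is a description. Proliferation genes, many of which are repressed when p21 is high, were lower in 12 of 12 cases, against 32.2% of all tested genes. Their median log2 fold change was -2.01, and the part of p21 in their levels was not tested. Mki67 was at 135.4 ± 2.40 CPM in control and 33.7 ± 2.49 CPM in induced libraries, Bub1b at 80.3 ± 1.94 and 16.7 ± 0.722 CPM, and Cdc20 at 84.9 ± 4.26 and 16.2 ± 1.42 CPM (SD, n = 3 each).

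Of 20 regulators and relatives of p53, 17 were tested, and 5 were higher, 7 were lower and 5 did not pass, with a median log2 fold change of -0.08. The shares over all tested genes were 32.6% higher and 32.2% lower. Mdm4, the partner of Mdm2 that holds p53 inactive, was at 61.9 ± 3.69 CPM in control and 50.6 ± 5.11 CPM in induced libraries, a log2 fold change of -0.29 (adjusted p = 0.00113, edgeR), opposite in sign to that of Mdm2. Hipk2, a kinase that phosphorylates p53, was at 120.4 ± 3.36 and 50.02 ± 2.23 CPM (log2 fold change -1.27), and the checkpoint kinase Chek1 was at 6.16 ± 1.09 and 1.88 ± 0.145 CPM (log2 fold change -1.71, or -0.72 with limma on log2(FPKM + 1)). Ppp1r13b, a cofactor of p53 in apoptosis, differed by 0.71 in the other direction.

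Cdkn2a, which encodes p19Arf, the inhibitor of Mdm2, and the cell cycle inhibitor p16Ink4a, had no read in any of the 6 libraries. At these depths a count of 0 allows a level of up to 0.150 to 0.159 CPM per library, taking 3 counts as the limit. Its neighbours were looked up after this value was seen. Cdkn2b, which lies next to it and encodes p15Ink4b, also had no read in any of the 6 libraries. Dmrta1, beyond Cdkn2b, had 0 to 5 reads per library. Mtap, on the other side of Cdkn2a, had 2307 to 2320 reads in control and 1589 to 1680 reads in induced libraries. Cdkn2a is listed at chr4:89274471-89294653, Cdkn2b at chr4:89306299-89311039 and Mtap at chr4:89137122-89181081. Both groups therefore shared the absence of detectable Cdkn2a reads, and whether the genes are present in these cells was not tested.

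Bbc3, Pmaip1 and Bax act together with the rest of the BCL2 family, of which 11 of 13 other genes were tested. Of these 6 were higher, 3 were lower and 2 did not pass, with a median log2 fold change of 0.18. Over all tested genes, 32.6% were higher and 32.2% lower. The survival genes Bcl2, Bcl2l1 (Bcl-xL) and Mcl1 were higher, by 0.52, 0.59 and 0.18 on the log2 scale (for Bcl2, 0.32 with limma on log2(FPKM + 1)). Bcl2l1 was at 73.1 ± 1.48 CPM in control and 110.2 ± 4.90 CPM in induced libraries (SD, n = 3 each). Among the killers, Bcl2l11 (Bim) was at 44.8 ± 4.15 and 21.9 ± 1.64 CPM, Bmf at 78.5 ± 3.58 and 51.1 ± 1.67 CPM, and Bok at 54.8 ± 3.85 and 26.8 ± 1.60 CPM (SD, n = 3 each), and all 3 were lower. The killer genes Bid and Bad, named after their values were seen, were higher, by 0.57 and 0.32, so the killers did not move in 1 direction either. Exons of Bid share 17.7% of their length with a gene on the opposite strand, and those of Bad 20.5%. Bak1, the counterpart of Bax, was at 65.1 ± 2.68 and 65.0 ± 2.58 CPM (adjusted p = 0.987, edgeR), with the sign of its log2 fold change dependent on the setting and 25.5% of its exon length shared with another gene. On the FPKM scale the ratio of Bax to Bcl2l1 was 3.47 ± 0.15 in control and 2.06 ± 0.068 in induced libraries, and that of Pmaip1 to Mcl1 was 0.0562 ± 0.0053 and 0.222 ± 0.0089 (SD, n = 3 each). Neither ratio overlapped between the groups.

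Of 15 caspases, their inhibitors and other proteins that carry out mitochondrial apoptosis, 1 was higher, 7 were lower and 7 did not pass, with a median log2 fold change of -0.15. Among all tested genes 32.6% were higher and 32.2% lower. The 1 higher call (adjusted p = 0.0226, edgeR) was lost with library totals alone and without control replicate 1. The caspase inhibitor gene Birc3 was at 20.4 ± 2.43 CPM in control and 11.4 ± 0.668 CPM in induced libraries (SD, n = 3 each), a log2 fold change of -0.84. Aifm1, which encodes an effector released from mitochondria, differed by -0.45 on the same scale. The genes that were lower therefore included both an inhibitor and an effector.

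Sesn2, Gdf15 and Pmaip1 can also be induced through the integrated stress response, in which Atf4 and its partner Ddit3 (Chop) activate genes of amino acid supply and of cell death. Of 18 genes of this response, 12 were higher, 4 were lower and 2 did not pass, with a median log2 fold change of 0.41. By comparison, 32.6% of all tested genes were higher and 32.2% lower. Atf4 was at 302.9 ± 2.53 CPM in control and 509.8 ± 11.7 CPM in induced libraries, and Ddit3 at 19.0 ± 1.74 and 85.5 ± 1.52 CPM (SD, n = 3 each), log2 fold changes of 0.75 and 2.17. Exons of Ddit3 share 10.9% of their length with another entry of the same name and with Gm4189 and Mars on the opposite strand. The glutathione-degrading enzyme gene Chac1, a target of Atf4 and Ddit3, was at 29.6 ± 1.83 and 117 ± 4.99 CPM, a log2 fold change of 1.99. The serine synthesis gene Psat1, also a target of Atf4, was lower, at 135.4 ± 3.00 and 43.2 ± 1.73 CPM (log2 fold change -1.65). The part of this response in the levels of the p53 targets was not tested.

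**Figure D4:**
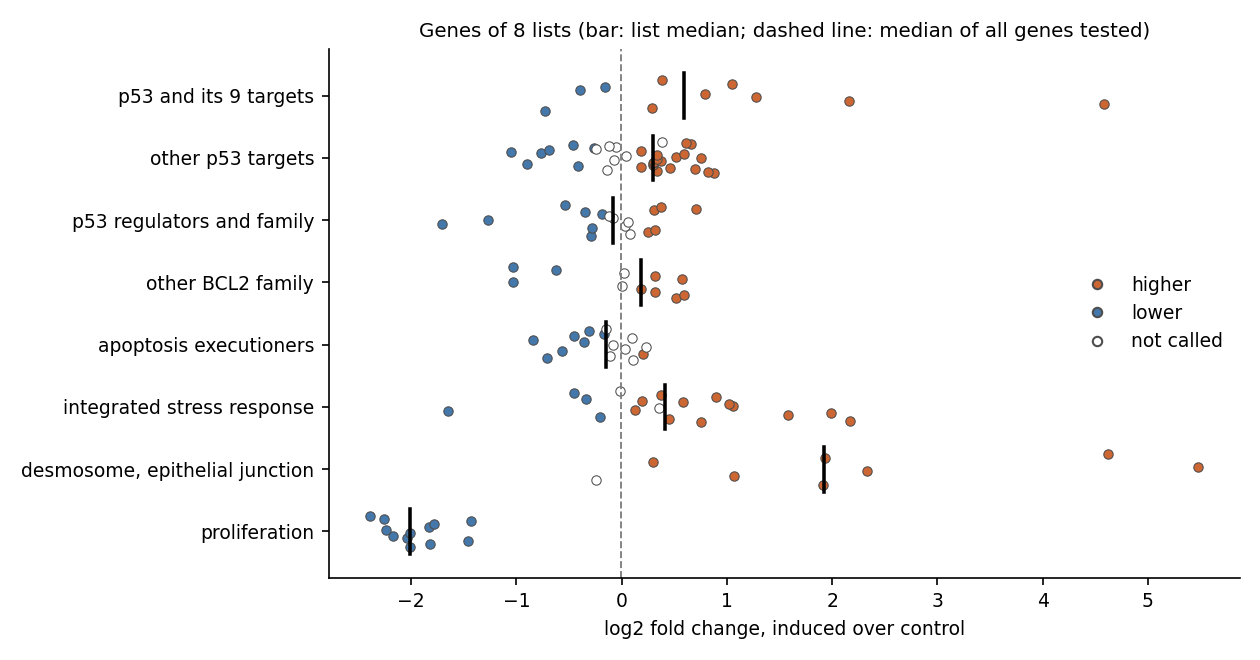
Log2 fold change of induced over control iCDCs (3 libraries each) for every tested gene of p53 and its 9 targets and of 7 other lists (8 of 16 genes for desmosomes and epithelial junctions), with a bar at each list's median and a dashed line at the median of all tested genes, -0.01. Perp at 4.58 and Pmaip1 at 2.16 lie to the right of all 32 other p53 targets, and the 12 proliferation genes all lie on the left.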

How the data were processed

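RNA of 3 control and 3 induced iCDC samples was sequenced after NEBNext Ultra library preparation. The authors deposited raw read counts per gene, whole numbers without normalization, and FPKM values in the same table. The submitters' processing notes name HISAT2 2.0.5, featureCounts 1.5.0-p3, DESeq2 1.16.1 and mm10. The annotation and the strand setting were not given in the sources used here, so overlapping genes were marked. In the deposited FPKM each count is divided by gene length and by 1 depth per library. The authors' own fold changes, p-values and enrichment tables were not used. Groups and replicate numbers were taken from the sample titles. The labels name separate samples but no separate cultures, so p-values measure the spread between these samples, which may be technical.

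The main test was the two-sided quasi-likelihood F test of edgeR 4.0.16, run in R 4.3.3 on the counts with TMM scaling. The filter was filterByExpr with a count of at least 10 and a total of at least 15. It passed 14246 genes, which hold 99.9% of the reads. Calls were made at 0.05 after Benjamini-Hochberg adjustment across these genes. Each standard error was computed from the log2 fold change and the F value of the gene, and intervals are 1.96 standard errors to each side. Limits of a count of 0 cover counting error only. Every pair of libraries within a group differed by more than sampling noise (chi-square per degree of freedom 2.56 to 8.91), and none was merged. The 2 pairs with induced replicate 2 differed most, at 8.91 and 8.04, against 4.68 for induced replicates 1 and 3 and 2.56 to 3.4 in control. Of the gene IDs, 54409 were in GENCODE M21, and 98.3% of these had the same coordinates.

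The 10 genes and the gene lists were chosen with earlier results of these data known. Named genes are the 10, the 3 genes with the smallest p of each of 7 other pathway lists, and 16 genes taken for their place in the pathway. The result of 1 of these genes is not reported here. The fit was repeated with DESeq2 1.42.0, with limma 3.58.1 on log2(FPKM + 0.1) and log2(FPKM + 1), with size factors from median ratios, with unscaled library totals, without the filter, with a filter at 1 CPM in 3 libraries and a mean count of 10, with the replicate number as a block, with each library left out in turn, and with calls made at 0.01.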

Additional observations from a re-analysis of the deposited data

How the results depend on the processing

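All 10 genes were called under every alternative except an adjusted p of 0.01 and leaving out control replicate 2, control replicate 3 or induced replicate 3, where 8 or 9 were. Over all genes the count of calls was 9225, between 7783 and 9765 under the alternatives and from 8514 to 9348 without 1 library. The count of 9348 came without induced replicate 2, the only library whose removal raised the count. No list's total of calls moved by more than 1.5 times. By direction, the 1 higher call among apoptosis executioners fell to 0 with library totals alone, without control replicate 1 and at 0.01, and the desmosome list gained 1 lower call with no filter. Bax was not called without control replicate 2 (log2 fold change -0.15), without control replicate 3 (-0.14), without induced replicate 3 (-0.13) or at 0.01. Gdf15 was not called without control replicate 3 (0.34), without induced replicate 3 (0.34) or at 0.01. Dsp was not called with limma on log2(FPKM + 1), where its log2 fold change was 0.12 (adjusted p = 0.0584). The same fit gave values smaller by more than 1.5 times for Perp (2.64), Chek1 (-0.72), Pkp2 (1.44), Krt14 (2.61), Bcl2 (0.32) and Cdh1 (0.46), and with log2(FPKM + 0.1) Dsp was at 0.72. With library totals alone the median log2 fold change of all genes was -0.04, with 4285 higher and 4933 lower. The log2 fold change of Bak1, -0.00 as reported, turned to 0.01 with DESeq2, median-ratio size factors and both limma fits, to 0.00 with no filter and with the stricter filter, and to 0.04 without control replicate 3 and without induced replicate 2, with a range of -0.02 to 0.04 over the 6 fits that left out 1 library. Of 614 values for 41 named and tested genes, 598 kept their direction and their side of the threshold. The causes of the changes were not tested.

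Same-numbered replicates did not deviate together (correlations -0.027, -0.027 and 0.032). This gave no sign that the numbers pair the samples, but it cannot exclude a pairing. With the replicate number as a block, 9063 genes were called, and all 10 genes were called. Depth limited Perp in control libraries, at 8 to 15 reads each, and left Trp63 untested.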
